A study of Homo sapiens with 14 samples.

Results

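The pyruvate dehydrogenase complex and the enzymes that switch it were examined at the level of mRNA in SCC23 cells, an established line of head and neck squamous cell carcinoma (HNSCC). The members were the 10 genes PDHA1, PDHB, DLAT, DLD, PDHX, PDK1, PDK2, PDK3, PDK4, and PDP1, taken by gene name from the 59471 gene names of the count files. SCC23 cells had been transfected with a plasmid that carried Cas9, GFP, and a guide RNA, and GFP-positive cells were sorted and cultured. A guide against bacterial LacZ gave the KMT2D-WT control cells, so that these also went through Cas9 and sorting, and guides against KMT2D, a histone H3 lysine 4 methyltransferase, gave the KMT2D-KO lines KO1 and KO2. No cloning of single cells was described, so each line may be a mixture of edited alleles. Cells were kept in high-glucose medium (+Glc) or deprived of glucose for 6 h (-Glc), and polyadenylated RNA was sequenced in 2 experiments. Each glucose condition held 3 KMT2D-WT libraries, 1 from experiment 1 and 2 from experiment 2, and 4 KMT2D-KO libraries, 1 of each line in each experiment. The labels of experiment 2 name its KMT2D-WT libraries WT1 and WT2. They do not say whether these were separate lines, and both were treated as replicates. No label says whether replicates came from separate cultures, so the p-values below measure the spread between these libraries, which may be technical. In RNA from whole cultures, fewer cells that express a gene and less RNA per cell cannot be told apart.

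The complex sits in the mitochondrial matrix and turns pyruvate, the end product of glycolysis, into acetyl-CoA, so that it stands between glycolysis and the tricarboxylic acid cycle. It is built from a decarboxylase (E1, a tetramer of the PDHA1 and PDHB products), an acetyltransferase core that carries lipoate arms (E2, from DLAT), a binding protein (from PDHX), and a dehydrogenase that reoxidises the lipoate (E3, from DLD), which other 2-oxo acid dehydrogenases share. The kinases PDK1 to PDK4 phosphorylate the E1 alpha subunit and switch the complex off, and the phosphatase whose catalytic subunit is the PDP1 product switches it back on, so high kinase and low phosphatase activity send pyruvate to lactate, as in many carcinomas with a strong Warburg effect. None of this activity is measured by mRNA counts.

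Several features of the libraries bear on what follows. Total counts ranged from 15669154 to 62968057 per library. The 4 libraries of experiment 2 with glucose were counted with both mates of a read pair and the other 10 as single reads, so in experiment 2 glucose deprivation and the way of counting cannot be told apart. Between replicates 3 and 4 of KMT2D-KO without glucose, which the labels give to different lines, the chi-square per gene was 1.78, and it was 1.71 between replicates 2 and 3 of KMT2D-WT without glucose, against 25.9 to 83 for the other pairs of the same group and experiment. On a scale that runs from 0 at KO1 to 1 at KO2, set by 96 genes that differed between the lines with glucose, replicate 3 lay at 0.93 although its label gives KO1. KMT2D itself was a weak check of the labels. It was at 266 to 279 CPM (counts-per-million, scaled by TMM) in KMT2D-WT with glucose. The KMT2D-KO libraries with glucose overlapped them, at 182 and 184 CPM in line KO1 (replicates 1 and 3) and at 323 and 373 CPM in line KO2 (replicates 2 and 4). Without glucose KMT2D was at 231 to 239 CPM in KMT2D-WT and at 19.9, 190, 152, and 145 CPM in KMT2D-KO, below all KMT2D-WT libraries, while the edgeR adjusted p was 0.247. The KMT2D protein was not measured in these files.

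Squamous markers were present at 634 to 3248 CPM summed over 8 genes (KRT5, KRT14, KRT6A, KRT17, TP63, SFN, DSG3, and CDH1), although KRT6A was at 1.13 CPM or less. The sum ran from 1702 to 3248 CPM in KMT2D-KO without glucose and from 1200 to 1659 CPM in KMT2D-WT without glucose. The groups did not overlap there, and the part of this sum in the results below was not tested. KRT17 alone of the 8 separated without glucose, at 366 to 1303 CPM in KMT2D-KO and 137 to 215 CPM in KMT2D-WT. The other markers overlapped, SFN and KRT14 among them. With glucose KRT5 ran from 1.5 to 166 CPM in KMT2D-KO. The share of all genes that separate was not counted. The 6 markers of blood, endothelial, and pigment cells (PTPRC, CD3E, CD79A, PECAM1, VWF, and MLANA) summed to 2.58 CPM at most.

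Within these cells the structural subunits and PDP1 were present at similar mRNA levels, and the kinases at far lower ones. Per length (transcripts-per-million, TPM, from the counts and the deposited exonic lengths), the means over the 14 libraries were 75.2 ± 26.4 (SD, n = 14) for DLD, 72.2 ± 10.9 for PDHA1, 64.0 ± 17.8 for PDP1, 54.2 ± 8.38 for DLAT, 49.5 ± 6.35 for PDHX, and 47.3 ± 8.71 for PDHB. Neighbours in this order were not well separated, since DLD exceeded PDHA1 in 8 of 14 libraries, PDHA1 exceeded PDP1 in 7, and PDHX exceeded PDHB in 7. PDK2 followed at 11.5 ± 3.13 TPM, PDK1 at 3.0 ± 1.09, and PDK3 at 1.98 ± 0.924. In every library PDHB exceeded PDK2 and PDK2 exceeded PDK1, while PDK1 exceeded PDK3 in 11 of 14. PDK4, the kinase best known from fasted muscle and heart, was at 0 counts in every library but replicate 3 of KMT2D-KO with glucose, which had 2 counts, and a count of 0 allowed up to 0.0444 to 0.188 CPM, depending on the library (3 counts, counting error only). It was therefore not tested, and the tests below concern the other 9 members.

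With TMM scaling, 4 of the 5 subunit genes were higher in KMT2D-KO cells without glucose and DLD did not pass that test. The sequences around the start sites of all 5 are therefore shown. RefSeq promoter windows of 300 bases on GRCh38.p14, from 250 bases before to 50 bases after a start site, were found for 9 of the 10 members, PDP1 being the exception, and where several were listed the start site nearest the gene's start in the count files was taken. The windows, 5′ to 3′ on the strand of the gene, are chrX:19343677-19343976 (plus strand) for PDHA1, chr3:58433783-58434082 (minus strand) for PDHB, chr11:112025158-112025457 (plus strand) for DLAT, chr11:34916188-34916487 (plus strand) for PDHX, and chr7:107890933-107891232 (plus strand) for DLD. Capitals mark matches, on either strand, to the motifs named below.
PDHA1: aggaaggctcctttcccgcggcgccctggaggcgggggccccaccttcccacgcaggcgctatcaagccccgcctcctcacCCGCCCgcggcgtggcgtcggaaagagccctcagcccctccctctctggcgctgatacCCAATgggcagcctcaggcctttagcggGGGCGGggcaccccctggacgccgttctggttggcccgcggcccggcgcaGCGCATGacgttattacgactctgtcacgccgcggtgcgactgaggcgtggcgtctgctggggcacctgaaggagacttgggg
PDHB: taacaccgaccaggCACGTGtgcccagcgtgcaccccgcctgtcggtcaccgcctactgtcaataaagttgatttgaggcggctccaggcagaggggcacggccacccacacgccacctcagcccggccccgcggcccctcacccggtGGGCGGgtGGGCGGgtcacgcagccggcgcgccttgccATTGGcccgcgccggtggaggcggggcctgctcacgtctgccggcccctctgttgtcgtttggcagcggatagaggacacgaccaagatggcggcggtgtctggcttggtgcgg
DLAT: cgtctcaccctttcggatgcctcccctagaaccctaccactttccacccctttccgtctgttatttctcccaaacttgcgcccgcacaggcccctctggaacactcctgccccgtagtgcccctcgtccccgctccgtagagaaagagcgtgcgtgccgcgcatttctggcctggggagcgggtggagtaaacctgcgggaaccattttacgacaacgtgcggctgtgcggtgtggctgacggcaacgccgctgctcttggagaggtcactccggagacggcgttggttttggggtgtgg
PDHX: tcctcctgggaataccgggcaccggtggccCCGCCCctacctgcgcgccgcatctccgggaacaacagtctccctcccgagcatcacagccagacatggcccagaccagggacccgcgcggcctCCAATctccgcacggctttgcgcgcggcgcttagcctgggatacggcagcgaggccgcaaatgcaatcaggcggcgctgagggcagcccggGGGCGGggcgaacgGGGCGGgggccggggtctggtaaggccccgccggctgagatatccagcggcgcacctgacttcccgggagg
DLD: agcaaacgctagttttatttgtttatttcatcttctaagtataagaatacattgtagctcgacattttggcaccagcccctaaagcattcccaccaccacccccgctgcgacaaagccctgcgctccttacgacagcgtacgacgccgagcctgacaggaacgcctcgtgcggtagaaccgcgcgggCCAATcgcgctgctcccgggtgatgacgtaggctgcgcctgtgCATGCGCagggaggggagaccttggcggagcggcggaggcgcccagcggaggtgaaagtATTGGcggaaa
The motifs searched were the GC box GGGCGG, the CCAAT box CCAAT, the E-box CACGTG, the core CCGGAAG of ETS factors, the part GCGCATG of the NRF1 motif, and the site AAGGTCA of oestrogen-related receptors. A GC box was found in the windows of PDHA1 (2 matches), PDHB (2), and PDHX (3), and 45.0% of all 35116 windows held one. A CCAAT box was found once each in PDHA1, PDHB, and PDHX and 2 times in DLD, against 34.6% of all windows. The NRF1 part was found once in PDHA1, 33 bases before the start site, and once in DLD, 20 bases before it, against 4.43% of all windows. PDHB alone held an E-box (7.26% of all windows), and no window of the 5 held the ETS core (10.3%) or the receptor site (3.92%). The DLAT window held none of the 6 motifs, so no searched motif was found in all of the 4 genes that were higher. GC content was 71.0% for PDHA1, 70.3% for PDHB, 62.0% for DLAT, 71.7% for PDHX, and 58.3% for DLD, beside a median of 58.7% over all windows.

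Relative to the median gene (TMM scaling), 4 of the 5 structural subunits and PDP1 were higher in KMT2D-KO than in KMT2D-WT cells without glucose. In TPM the log2 ratios of DLAT (-0.060), PDHX (-0.038), and PDP1 (-0.091) were below 0. No kinase passed the test without glucose with all 7 libraries. With glucose, PDHA1 was higher and PDK2 lower in KMT2D-KO cells, and the other 7 members did not pass the test. With edgeR's quasi-likelihood test (experiment as covariate, Benjamini-Hochberg adjustment over all genes tested), 5 of 9 members were higher without glucose, where 25.9% of the 16782 genes tested were higher, and 0 of 9 were lower, where 24.9% of genes were. DESeq2 with the same covariate called the same 5 members. Without the covariate, edgeR called PDHA1 and PDHB without glucose and no member with glucose. With each of the close pairs of experiment 2 summed into 1 library, PDHA1 (0.58, edgeR adjusted p = 0.0406) and PDHB (0.60, 0.0414) were called, and DLAT (0.46), PDHX (0.44), and PDP1 (0.46) had adjusted p of 0.0748 to 0.0899. With glucose 1 of 9 members was higher beside 13.0% of the 20423 genes tested, and 1 was lower beside 11.7%. The median log2 fold change of the 9 members was 0.44 without glucose and 0.17 with glucose, beside 0.00 and 0.02 over all genes tested.

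**Figure D1:**
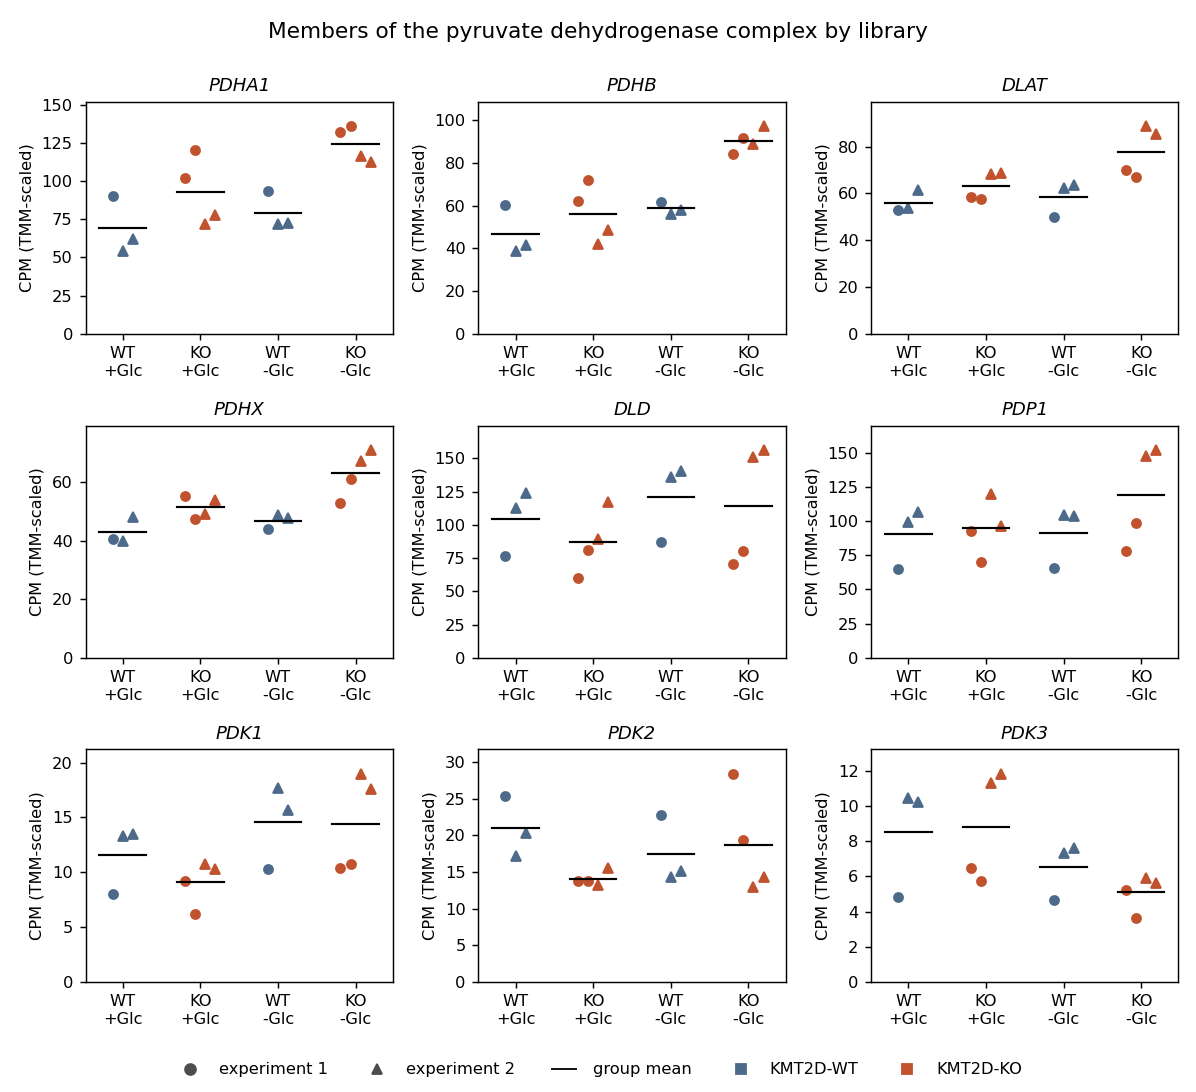
Levels of the 9 tested members in each of the 14 libraries, in TMM-scaled CPM (vertical axes from 0), by genotype and glucose condition, with circles for experiment 1, triangles for experiment 2, and lines for group means. PDHA1, PDHB, DLAT, and PDHX show all KO -Glc points above all WT -Glc points, and PDK2 shows all KO +Glc points below all WT +Glc points. The share of all genes that separate in this way was not counted.

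The E1 genes had the largest differences without glucose among the subunits. PDHA1, which encodes the E1 alpha subunit that the kinases phosphorylate, lies on the X chromosome of GRCh38 from 19343893 to 19361718. Without glucose its level was 93.5, 72.2, and 72.4 CPM in KMT2D-WT replicates 1 to 3 and 132, 136, 116, and 113 CPM in KMT2D-KO replicates 1 to 4. All KMT2D-KO libraries lay above all KMT2D-WT libraries. The share of all genes that separate in this way was not counted, here or for the members below. The same holds for separation within each experiment. In this comparison 25.9% of all genes tested were called higher. The log2 fold change was 0.59 ± 0.06 (SE, n = 3 and 4, edgeR adjusted p = 3.76e-04). With glucose PDHA1 was at 90.3, 54.5, and 62.4 CPM in KMT2D-WT and at 102.1, 120, 71.6, and 78.0 CPM in KMT2D-KO. The groups overlapped, but within each experiment both KMT2D-KO libraries lay above KMT2D-WT, and the log2 fold change was 0.34 ± 0.10 (edgeR adjusted p = 0.0311). That call was lost when any of KMT2D-WT replicates 1, 2, and 3 or KMT2D-KO replicates 2 and 4 was left out, with log2 fold changes of 0.29 to 0.39 in all 7 such fits.

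PDHB encodes the E1 beta subunit and lies on chromosome 3 from 58427630 to 58433857. Without glucose it was at 61.6, 56.2, and 58.1 CPM in KMT2D-WT and at 84.1, 91.8, 88.6, and 97.0 CPM in KMT2D-KO, again without overlap (log2 fold change 0.61 ± 0.07, edgeR adjusted p = 5.36e-04). With glucose it was at 60.3, 38.8, and 41.4 CPM in KMT2D-WT and at 62.2, 72.1, 41.8, and 48.4 CPM in KMT2D-KO, groups that overlapped, with a log2 fold change of 0.17 ± 0.10 (edgeR adjusted p = 0.242). Within each experiment, though, both KMT2D-KO libraries with glucose lay above KMT2D-WT. PDHB was the member for which the difference between genotypes was called larger without glucose. In a fit of the 14 libraries together, which allowed the experiments to differ in each condition, its KMT2D-KO effect was greater by 0.46 ± 0.13 on the log2 scale without glucose than with glucose (edgeR adjusted p = 0.0366). It was the 1 member of 9 called higher in that test, beside 4.73% of the 18678 genes tested, and none of the 9 was called lower, beside 6.54%. At an unadjusted p under 0.05 the same test listed PDHA1 (log2 difference 0.27), DLAT (0.26), PDK2 (0.54), and PDK3 (-0.49) as well, with adjusted p of 0.162, 0.134, 0.121, and 0.141, and DESeq2 called PDHA1, PDHB, and DLAT. With library size alone as scale the PDHB difference was 0.24 (edgeR adjusted p = 0.184) and PDK3 was called lower (-0.72), while the median gene moved to -0.23. The PDHB call was lost in 9 of 14 fits that left out a library, those without any of the 3 KMT2D-WT libraries of either condition, KMT2D-KO replicate 3 with glucose, or KMT2D-KO replicates 3 and 4 without glucose, where the difference stayed between 0.41 and 0.54.

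In the ratio of TPM within a library, which no scaling of libraries changes, PDHA1 stood at 1.47 to 1.58 times PDHB in KMT2D-WT with glucose and at 1.69 to 1.79 times in KMT2D-KO with glucose. The ranges did not overlap. Without glucose they did, at 1.31 to 1.59 and 1.22 to 1.65. How often ratios of other genes separate was not counted.

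DLAT, on chromosome 11 from 112025408 to 112064404, encodes the E2 core, and PDHX, on the same chromosome from 34915829 to 35020591, encodes the protein that ties E3 to it. Without glucose DLAT was at 49.97, 62.3, and 63.4 CPM in KMT2D-WT and at 70.1, 67.1, 88.6, and 85.5 CPM in KMT2D-KO (log2 fold change 0.45 ± 0.07, edgeR adjusted p = 0.00214). PDHX was at 43.9, 48.8, and 48.0 CPM in KMT2D-WT and at 53.0, 61.2, 67.5, and 71.0 CPM in KMT2D-KO (0.44 ± 0.07, edgeR adjusted p = 0.00205). For both genes all KMT2D-KO libraries lay above all KMT2D-WT libraries. With glucose neither passed the test. Within each experiment both KMT2D-KO libraries lay above KMT2D-WT for DLAT and for PDHX, as they did for the kinase PDK3. DLAT then had 52.9, 53.8, and 61.3 CPM in KMT2D-WT against 58.6, 57.8, 68.1, and 68.9 CPM in KMT2D-KO (log2 fold change 0.21 ± 0.08, edgeR adjusted p = 0.0954). PDHX had 40.5, 40.0, and 48.3 CPM against 55.4, 47.5, 49.1, and 54.0 CPM (0.28 ± 0.10, edgeR adjusted p = 0.0839). The ratio of PDHX to DLAT in TPM ran from 0.824 to 1.08 over all 14 libraries.

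DLD, on chromosome 7 from 107891162 to 107931730, encodes the E3 subunit that the complex shares with other dehydrogenases, and it did not pass the test between genotypes. Without glucose DLD was at 86.9, 136, and 140 CPM in KMT2D-WT and at 70.1, 80.6, 151, and 156 CPM in KMT2D-KO (log2 fold change -0.01 ± 0.08, edgeR adjusted p = 0.924). The experiments ran in opposite directions, with both KMT2D-KO libraries below KMT2D-WT in experiment 1 (log2 ratio -0.20) and both above in experiment 2 (0.15). DLD was called higher in experiment 2 alone (0.11, edgeR adjusted p = 0.00575) and lower with library size alone as scale (-0.27, 0.0407). With glucose DLD was at 76.5, 112, and 124 CPM in KMT2D-WT and at 60.1, 81.0, 89.1, and 117 CPM in KMT2D-KO (-0.16 ± 0.13, edgeR adjusted p = 0.442). In a fit that gave each line its own term, DLD was called lower with glucose in line KO1. DLD was the subunit called between the lines with glucose in the fit of 7 libraries. It was higher in KO2 than in KO1 by 0.41 ± 0.09 on the log2 scale (edgeR adjusted p = 0.0043), at 81.0 against 60.1 CPM in experiment 1 and 117 against 89.1 CPM in experiment 2. The call was lost without any 1 of the 4 KMT2D-KO libraries, where the log2 fold change was 0.33 to 0.47. In a fit of the 4 KMT2D-KO libraries alone PDHB was called as well (0.20, edgeR adjusted p = 0.0467). In the fit of 7 libraries DLD was the 1 member of 9 higher in KO2, beside 7.37% of all genes tested, and PDP1 was the 1 member lower, beside 7.89%. Per transcript of DLAT, DLD stood at 1.21 to 1.74 in KMT2D-WT and 0.854 to 1.41 in KMT2D-KO with glucose, ranges that overlapped.

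PDP1 encodes the catalytic subunit of the phosphatase that reactivates the complex and lies on chromosome 8 from 93857807 to 93926068. Without glucose it was at 66.0, 105, and 104 CPM in KMT2D-WT and at 78.0, 98.4, 147, and 152 CPM in KMT2D-KO. The groups overlapped, with lower levels in experiment 1 in each genotype, and within each experiment both KMT2D-KO libraries lay above KMT2D-WT (log2 fold change 0.46 ± 0.08, edgeR adjusted p = 0.00312). With glucose PDP1 was at 65.3, 99.5, and 106 CPM in KMT2D-WT and at 93.1, 69.8, 120, and 96.4 CPM in KMT2D-KO (0.17 ± 0.13, edgeR adjusted p = 0.378). There the lines parted, KO2 being lower than KO1 by a log2 fold change of -0.36 ± 0.09 (edgeR adjusted p = 0.015). That call was lost without KMT2D-KO replicate 1, 2, or 4, where the log2 fold change was -0.44 to -0.27.

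Among the kinases PDK2 was lower in KMT2D-KO cells with glucose, and no kinase passed the test without glucose with all 7 libraries. PDK2 encodes the most widely expressed of these kinases and lies on chromosome 17 from 50094737 to 50112152. With glucose it was at 25.3, 17.2, and 20.4 CPM in KMT2D-WT and at 13.8, 13.8, 13.2, and 15.6 CPM in KMT2D-KO. All KMT2D-KO libraries lay below all KMT2D-WT libraries. The log2 fold change was -0.57 ± 0.13 (edgeR adjusted p = 0.0141), and the log2 ratio was -0.88 in experiment 1 and -0.38 in experiment 2. The call was lost without KMT2D-WT replicate 1 or replicate 3. Without glucose PDK2 was at 22.8, 14.3, and 15.1 CPM in KMT2D-WT and at 28.3, 19.4, 12.9, and 14.3 CPM in KMT2D-KO, and the groups overlapped within each experiment too (log2 fold change -0.06 ± 0.17, edgeR adjusted p = 0.798). When KMT2D-KO replicate 1, the library with the highest PDK2 level there, was left out, PDK2 was called lower without glucose (-0.18, edgeR adjusted p = 0.0294). The difference between the conditions itself did not pass the test (0.54 ± 0.21, edgeR adjusted p = 0.121). Of the exonic bases of PDK2, 38.6% are shared with SAMD14, and reads were counted without strand, but SAMD14 held 0.429 CPM at most in any library. The shared exonic bases were 21.2% for PDHA1 (with MAP3K15, at most 0.522 CPM) and 23.6% for DLAT (with PIH1D2, at most 2.07 CPM). PIH1D2 was not called between genotypes in either condition. MAP3K15 was not called with glucose and was not tested without glucose.

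PDK1, a target of hypoxia-inducible factors, and PDK3, another kinase of the family, did not pass the test between genotypes with all libraries. PDK1 lies on chromosome 2 from 172555373 to 172608669. With glucose it was at 7.97, 13.3, and 13.5 CPM in KMT2D-WT and at 9.16, 6.15, 10.8, and 10.3 CPM in KMT2D-KO (log2 fold change -0.24 ± 0.16, edgeR adjusted p = 0.324). Without glucose it was at 10.3, 17.7, and 15.7 CPM in KMT2D-WT and at 10.3, 10.8, 18.9, and 17.6 CPM in KMT2D-KO (0.08 ± 0.09, edgeR adjusted p = 0.528). In a fit that gave each line its own term, PDK1 was called lower with glucose in line KO2 (-0.40, edgeR adjusted p = 0.0475). It was called higher without glucose under a gene length offset (0.31, edgeR adjusted p = 0.0435). PDK3 lies on the X chromosome from 24465270 to 24550466. With glucose it was at 4.81, 10.5, and 10.2 CPM in KMT2D-WT and at 6.45, 5.71, 11.3, and 11.8 CPM in KMT2D-KO (0.23 ± 0.13, edgeR adjusted p = 0.25). Both KMT2D-KO libraries with glucose lay above KMT2D-WT within each experiment for PDK3 too, as for PDHB, DLAT, and PDHX. Without glucose it was at 4.67, 7.32, and 7.61 CPM in KMT2D-WT and at 5.20, 3.65, 5.93, and 5.61 CPM in KMT2D-KO (-0.28 ± 0.18, edgeR adjusted p = 0.226). Within experiment 2 both KMT2D-KO libraries lay below both KMT2D-WT libraries, and within experiment 1 they lay on either side of the KMT2D-WT library. PDK3 was called lower without glucose when KMT2D-KO replicate 1 was left out (-0.41, edgeR adjusted p = 0.0033) and in experiment 2 alone (-0.42, 0.00299).

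PDK2 was the main kinase transcript in all 14 libraries. It made up 57.9% to 83.8% of the summed TPM of the 4 kinases, PDK1 9.73% to 31.3%, and PDK3 5.96% to 21.1%, shares that do not depend on how libraries are scaled. The shares of PDK2 and PDK1 overlapped between all 4 groups, while that of PDK3 was 12.6% to 21.1% in KMT2D-KO with glucose and 5.96% to 10.8% in KMT2D-KO without glucose, which did not overlap. The summed kinase level was lower in KMT2D-KO with glucose. It was at 4.81 to 5.52 CPM per kilobase in KMT2D-WT (mean 5.24 ± 0.375, SD, n = 3) and at 3.36 to 4.42 in KMT2D-KO (3.84 ± 0.462, n = 4), which did not overlap. Without glucose it was at 4.35 to 5.20 in KMT2D-WT and 4.07 to 6.26 in KMT2D-KO, which overlapped. In TPM, the scale planned for the sum, the genotypes did not overlap in either condition. Per transcript of PDHA1, their substrate, the kinases summed to 0.275 to 0.398 in KMT2D-WT and 0.126 to 0.255 in KMT2D-KO with glucose, and to 0.251 to 0.273 and 0.1503 to 0.213 without glucose. In both conditions the ratio was lower in every KMT2D-KO library than in every KMT2D-WT library. It is made from the PDHA1 and kinase levels already given, so it is not separate evidence. Per transcript of PDP1 the kinases summed to 0.271 to 0.473 in KMT2D-WT and 0.186 to 0.27 in KMT2D-KO with glucose, without overlap, and to 0.233 to 0.441 and 0.155 to 0.45 without glucose, with overlap. These sums and ratios were not tested, and how often sums or ratios of other genes separate in this way was not counted.

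**Figure D2:**
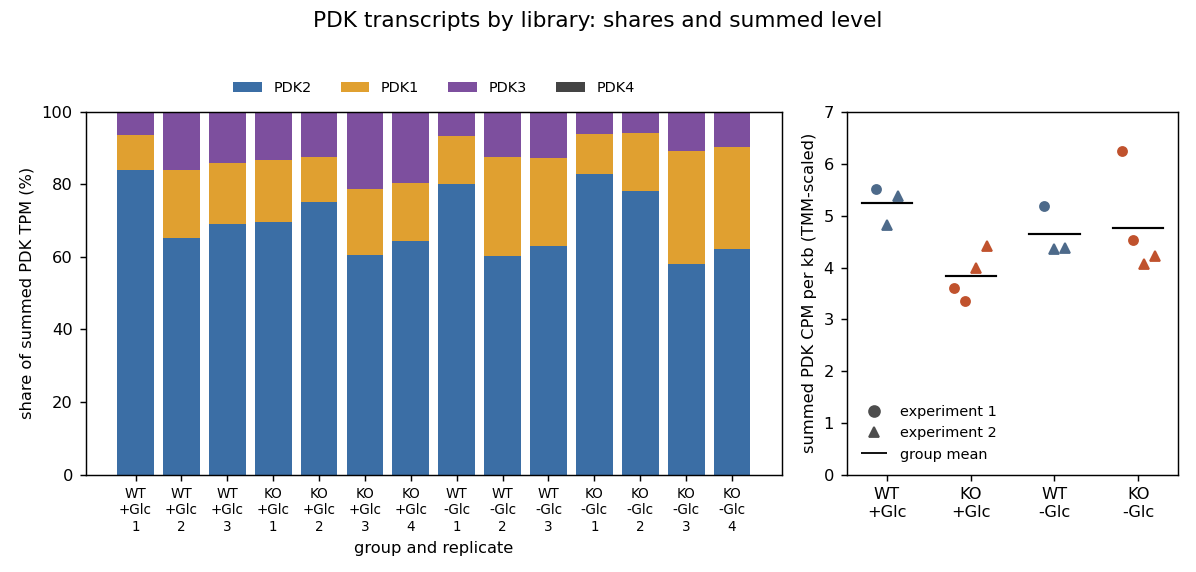
Left, share of each kinase in the summed TPM of PDK1 to PDK4 (vertical axis, percent) in each library, ordered by group and replicate. Right, summed TMM-scaled CPM per kilobase of the 4 kinases by group (circles, experiment 1, triangles, experiment 2, lines, means). PDK2 is the largest share in all 14 bars, PDK4 is too small to see, and the 4 KO +Glc points, at 3.36 to 4.42, lie below the 3 WT +Glc points.

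The scaling of libraries sets the zero of the comparison without glucose, and each direction given here is relative to the median gene. The TMM factors were 0.863 to 0.893 in the 4 KMT2D-KO libraries without glucose and 1.03 to 1.09 in the 3 KMT2D-WT libraries without glucose. With library size alone as scale the median gene of that comparison moved to a log2 fold change of -0.25 and the share of higher genes among those called fell from 51.0% to 30.2%. PDHA1 (0.33), PDHB (0.35), and DLAT (0.19) were then still called higher, PDHX (0.19) and PDP1 (0.20) were not called, with edgeR adjusted p of 0.071 and 0.0849, and DLD (-0.27) and PDK3 (-0.54) were called lower. In TPM the median gene lay at -0.46 and the direction flipped for DLAT (-0.060), PDHX (-0.038), and PDP1 (-0.091), while PDHA1 (0.18) and PDHB (0.16) stayed above 0. Relative to the median gene of each scale, the ratios of these 5 members lay between 0.36 and 0.64 on all 3 scales. A change of scale multiplies all genes of a library alike, apart from a gene length that cancels in the ratio. This likeness therefore follows from the scales and is no check of the directions. The genotypes did not overlap with TMM for PDHA1, PDHB, DLAT, and PDHX, but in TPM they overlapped for each of these genes. With library size alone they overlapped for DLAT and PDHX. The calls of PDHA1 and PDK2 with glucose held with library size alone (0.29 and -0.63), where the median gene moved to -0.03. The summed kinase level without glucose depended on the scale too, since in TPM the KMT2D-KO libraries (12.6 to 16.7) lay below all KMT2D-WT libraries (18.3 to 19.1).

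**Figure D3:**
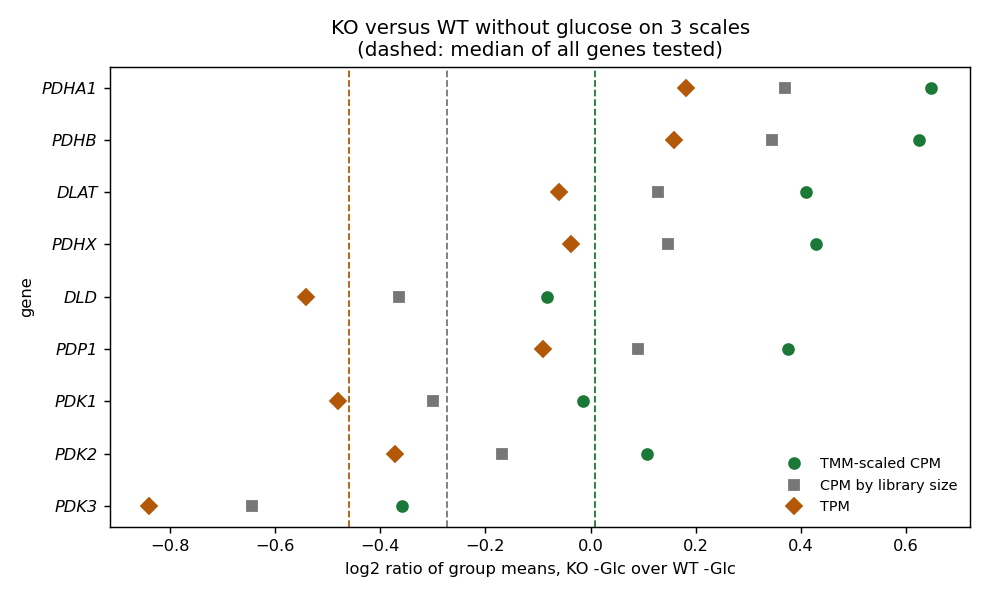
Log2 ratio of group means, KMT2D-KO over KMT2D-WT without glucose (horizontal axis), for the 9 tested members on 3 scales of the same counts, with dashed lines at the median of all genes tested on each scale. The members shift together with the median gene, from 0.01 for TMM-scaled CPM to -0.27 for CPM by library size and -0.46 for TPM. PDHA1 is thus 0.64 above the median on each, as rescaling libraries shifts all genes nearly alike.

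The response to 6 h without glucose was tested within each genotype. In KMT2D-KO cells PDHA1, PDHB, DLAT, and PDK1 rose and PDK3 fell. In KMT2D-WT cells no member passed the test, and the differences between the genotypes' responses are those of the test with all 14 libraries given above, which called PDHB. Thus 4 of 9 members were higher in KMT2D-KO cells beside 14% of the 16057 genes tested, and 1 was lower beside 16.0%. In KMT2D-WT cells 0 of 9 were higher beside 7.15% of the 17227 genes tested and 0 were lower beside 7.58%, although 5 of 9 had an unadjusted p under 0.05 and DESeq2 called 4 members higher (DLD, PDHA1, PDHB, and PDK1). Without either KMT2D-WT library of experiment 1, edgeR called 6 members, DLD, PDHA1, PDHB, and PDK1 higher and PDK2 and PDK3 lower. In KMT2D-KO cells PDHB alone was called without replicate 3 of either condition, and no member without replicate 4 of either condition.

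In KMT2D-KO cells PDHB rose from 62.2, 72.1, 41.8, and 48.4 CPM to 84.1, 91.8, 88.6, and 97.0 CPM, so that all libraries without glucose lay above all with glucose (log2 fold change 0.69 ± 0.15, edgeR adjusted p = 0.0147). PDHA1 rose by 0.42 ± 0.11 (edgeR adjusted p = 0.0228), DLAT by 0.27 ± 0.08 (0.0319), and PDK1, which inhibits the complex, by 0.61 ± 0.17 (0.031), with libraries that overlapped over the 2 experiments and separated within each. PDK3 fell by 0.76 ± 0.19 (edgeR adjusted p = 0.0238), from 6.45, 5.71, 11.3, and 11.8 CPM to 5.20, 3.65, 5.93, and 5.61 CPM. In KMT2D-WT cells the same genes had log2 fold changes of 0.36 ± 0.11 (PDHB, edgeR adjusted p = 0.0735), 0.23 ± 0.08 (PDHA1, 0.0948), 0.07 ± 0.07 (DLAT, 0.511), 0.34 ± 0.09 (PDK1, 0.0629), and -0.32 ± 0.14 (PDK3, 0.138). DLD came nearest to the threshold there (0.22 ± 0.05, edgeR adjusted p = 0.0505).

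The experiments differed in these responses, and in experiment 2 they go together with the change from counting both mates to single reads. For PDHB the log2 ratio in KMT2D-KO cells was 0.39 in experiment 1 and 1.04 in experiment 2, and in KMT2D-WT cells 0.03 and 0.51. For PDK3 it was -0.46 and -1.005 in KMT2D-KO cells and -0.04 and -0.47 in KMT2D-WT cells. PDK2 had 0.79 and -0.08 in KMT2D-KO cells, where replicate 1 without glucose reached 28.3 CPM, and -0.15 and -0.35 in KMT2D-WT cells. With the both-mate counts halved, the same number of members was called in KMT2D-KO cells, 5, and 1 in KMT2D-WT cells, DLD. Halving divides all counts of a library alike, so it cannot show how counting both mates acted on single genes. In TPM the direction of DLAT in KMT2D-KO cells flipped (-0.021), and with library size alone, where the median gene moved to -0.20, PDHB and PDK3 were the members called.

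**Figure D4:**
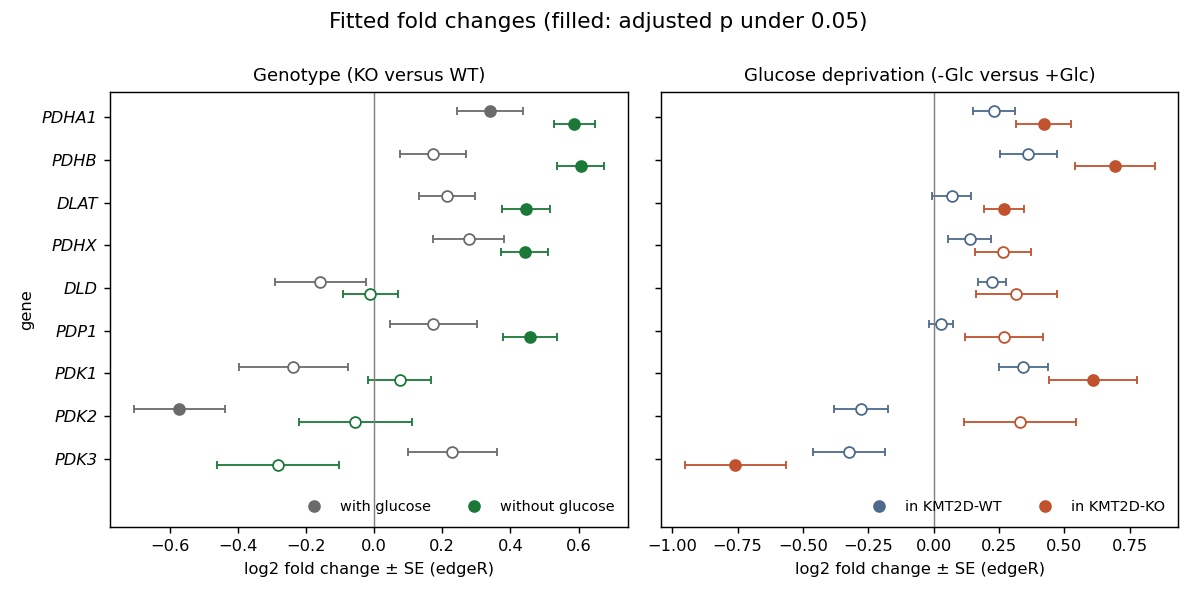
Fitted log2 fold changes with SE from edgeR (horizontal axes) for the 9 tested members, left for KMT2D-KO against KMT2D-WT with and without glucose and right for glucose deprivation in each genotype, with filled points at an adjusted p under 0.05. On the left 5 points without glucose are filled, at 0.44 to 0.61, and 2 with glucose, and on the right 5 points are filled in KMT2D-KO cells and 0 in KMT2D-WT cells.

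Genes around the complex were read from lists written from general knowledge. Of the other subunits and phosphatase genes, PDHA2, the testis form of PDHA1, was at 0.126 CPM at most, and PDPR, the regulatory subunit of the phosphatase, passed no test between genotypes. PDP2, the second phosphatase catalytic subunit, went opposite to PDP1 without glucose. Without glucose PDP2 was at 38.9, 45.3, and 46.2 CPM in KMT2D-WT and at 12.5, 27.8, 29.5, and 28.9 CPM in KMT2D-KO (log2 fold change -0.79 ± 0.22, edgeR adjusted p = 0.0226), without overlap. With glucose PDP2 ran from 24.5 to 35.6 CPM in KMT2D-WT and from 27.7 to 38.9 CPM in KMT2D-KO (0.14 ± 0.10, edgeR adjusted p = 0.334), and the difference of the effects passed the test (-0.90 ± 0.27, edgeR adjusted p = 0.0484). In KMT2D-WT cells PDP2 was the 1 gene of 2 tested in this list that rose on glucose deprivation.

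Genes that bring in or consume pyruvate were higher in KMT2D-KO cells where they passed the test, but with library size alone as scale 3 of 12 were higher without glucose (LDHA, LDHB, and PCK2) and PC was lower. With TMM, 7 of 12 tested were higher without glucose and 0 lower (MPC2, LDHA, ME3, LDHB, PCK2, PKM, and GPT2), beside 25.9% and 24.9% of all genes tested, with a list median of 0.39 beside 0.00 over all genes. With glucose 3 of 13 were higher (LDHB, PCK2, and GPT2) and 0 lower, beside 13.0% and 11.7% of all genes. LDHB, the lactate dehydrogenase subunit that favours lactate oxidation, had the largest differences of the named genes of this list, at 66.0 to 98.7 CPM in KMT2D-KO and 32.6 to 38.0 CPM in KMT2D-WT without glucose (1.28 ± 0.12, edgeR adjusted p = 2.71e-04). PCK2, mitochondrial PEP carboxykinase, differed by 0.67 ± 0.07 (edgeR adjusted p = 4.38e-04), LDHA, the muscle-type lactate dehydrogenase subunit, by 0.44 ± 0.06 (0.00102), and PKM, pyruvate kinase, by 0.36 ± 0.06 (0.00285). The mitochondrial pyruvate carrier subunit MPC1 did not pass the test in either condition.

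Named genes around the lipoate cofactor, on which E2 depends, moved both ways without glucose, and the 4 given here kept their directions with library size alone as scale. LIAS, the lipoate synthase, was higher by 0.58 ± 0.10 (edgeR adjusted p = 0.0027), while LIPT2, which transfers the octanoyl precursor, was lower, at 1.14 to 2.88 CPM in KMT2D-KO against 3.84 to 4.63 CPM in KMT2D-WT (-1.40 ± 0.30, edgeR adjusted p = 0.00734). GLRX5, an iron-sulfur glutaredoxin, was higher by 0.58 ± 0.11 (0.00527), and SLC25A42, a mitochondrial coenzyme A carrier, differed by -0.60 ± 0.13 (0.00709).

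The sister dehydrogenases were called in shares close to those of all genes. Without glucose 2 of 10 tested were higher (OGDHL and DLST) and 3 lower (PPM1K, BCKDHB, and DHTKD1), beside 25.9% and 24.9% of all genes tested, with a list median of -0.01. With glucose 1 was higher (OGDHL) and 1 lower (BCKDHB), beside 13.0% and 11.7%. With library size alone 1 was higher (OGDHL) and 5 lower without glucose. OGDHL, an isoform of the 2-oxoglutarate dehydrogenase E1, was at 19.9 to 29.4 CPM in KMT2D-KO against 5.25 to 8.16 CPM in KMT2D-WT without glucose (1.80 ± 0.16, edgeR adjusted p = 1.89e-04). DLST, the E2 of that complex, was higher by 0.29 ± 0.06 (0.00811), BCKDHB, an E1 subunit of the branched-chain complex, differed by -0.73 ± 0.17 (0.0107), and PPM1K, its phosphatase, by -0.69 ± 0.18 (0.0189).

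Of the 10 transcription factor genes listed for their known action on PDK genes, 9 were tested. Without glucose 1 was higher (FOXO1) and 3 lower (EPAS1, PPARD, and PPARA), beside 25.9% and 24.9% of all genes tested. With glucose 3 were higher (NR3C1, PPARGC1B, and FOXO1) and 1 was lower (EPAS1), beside 13.0% and 11.7%. With library size alone 1 was higher and 5 lower without glucose, HIF1A and ESRRA among them. PPARA, a fatty acid receptor that induces PDK4 in fasted tissue, was at 8.59 to 9.68 CPM in KMT2D-KO against 21.6 to 22.7 CPM in KMT2D-WT without glucose (-1.27 ± 0.09, edgeR adjusted p = 8.89e-05). PPARD differed by -0.67 ± 0.08 (5.10e-04), EPAS1, which encodes HIF-2 alpha, by -0.38 ± 0.07 (0.00493), and FOXO1 by 0.77 ± 0.18 (0.00993). HIF1A, which encodes HIF-1 alpha, passed no test between genotypes with TMM.

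On glucose deprivation 3 of the lists gave these counts, beside 7.15% of all genes higher and 7.58% lower in KMT2D-WT cells and 14% higher and 16.0% lower in KMT2D-KO cells. Of the pyruvate genes, 3 of 12 rose in KMT2D-WT cells (2 with library size alone) and 4 in KMT2D-KO cells (0 with library size alone), and none fell. Of the sister dehydrogenases, 1 of 10 fell in KMT2D-WT cells, and 1 rose and 2 fell in KMT2D-KO cells. Of the transcription factors, 1 of 9 rose and 3 fell in KMT2D-WT cells, and 2 fell in KMT2D-KO cells. With library size alone 3 sister dehydrogenases and 3 transcription factors fell in KMT2D-KO cells and none rose.

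The genes whose pattern was most like that of 2 members were found by Pearson's r of log2 CPM over the 14 libraries, after the mean of each glucose condition and experiment had been subtracted, among 14268 genes of at least 1 CPM. The members were those with the lowest p in each comparison of genotypes. For PDHA1 they were TSEN15 (0.990), PITHD1 (0.989), CTSF (0.989), MRPS34 (0.988), and LAS1L (0.988). For PDK2 they were TUBG1 (0.949), CDKN2AIPNL (0.939), TGFB1 (0.939), VRK3 (0.933), and ACTA2 (0.927). The subtraction left the difference between genotypes in place, and the members had been picked by it. Genes with a like difference therefore score high. The points also share libraries, depth, and the pair of close libraries in each genotype, so these values are a description.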

How the data were processed

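RNA-seq reads of 14 SCC23 libraries had been aligned by the authors to GRCh38 with HISAT2, and the deposited counts per gene name were made with featureCounts 2.0.3 on Ensembl 102, without strand and from primary alignments, in 4 libraries with both mates of a pair counted. From these counts, genes that passed filterByExpr (minimum count 10) were scaled by TMM and compared by the quasi-likelihood test of edgeR 4.0.16 under R 4.3.3, with experiment as covariate. A Benjamini-Hochberg adjusted p under 0.05 counted as called. The experiment numbers come from the labels and served as the replicate block. CPM values were scaled by TMM, and TPM used the deposited gene lengths. DESeq2 1.42.0, other scalings and filters, fits without the block, halved both-mate counts, a separate term for each line, single experiments, and fits without each library were alternatives. Scripts were tested on simulated data. The members and gene lists were chosen with earlier results of these data known. The genes named were the 10 members, KMT2D, up to 4 called genes per other list with the lowest p without glucose, and the 5 genes most correlated with the member of lowest p in each comparison of genotypes. Genes named beside these were chosen after their values were seen. Counts for the list of cofactor genes are not reported here.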

Additional observations from a re-analysis of the deposited data

Results flagged for a closer look

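For 7 genes the KMT2D-KO effect differed between the glucose conditions by the test of the difference itself, in the edgeR fit of all 14 libraries. PDHB was the member among them, with a KMT2D-KO effect greater by 0.46 on the log2 scale without glucose (edgeR adjusted p = 0.0366). Of the named genes of the other lists, the difference was -0.90 for PDP2, 0.44 for PKM, -1.28 for LIPT2, -1.04 for PPM1K, -0.91 for PPARA, and 0.50 for EPAS1. With library size alone as scale the calls of PDHB (0.24, edgeR adjusted p = 0.184), PKM (0.22, 0.214), and EPAS1 (0.27, 0.218) were lost. Over all 18678 genes tested, 4.73% were called higher and 6.54% lower in this test. The named list genes had been picked by their p without glucose, from values that this test also uses. Their number therefore cannot be set against these shares.

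Among the groups of 4 KMT2D-KO libraries, no member had a library farther from the others than Dixon's limit at 95% allows, in 18 groups tested. In 34 groups of the named list genes 3 libraries were farther, where chance gives about 1 in 20. PDP2 was at 12.5 CPM in replicate 1 of KMT2D-KO without glucose, against 27.8 to 29.5 CPM in the other replicates. DLST was at 364 CPM in replicate 2 of KMT2D-KO without glucose, against 319 to 321 CPM in the others. PPM1K was at 6.56 CPM in the same library, against 9.59 to 10.0 CPM.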

How the results depend on the processing

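The members called with all libraries and TMM kept their direction in the edgeR and DESeq2 fits that were run, while DLD without glucose, not called there, was called lower with library size alone (-0.27) and higher in experiment 2 alone (0.11). The counts of members called depended on the settings, and the cause was not tested beyond the smaller number of libraries where some were left out. Without the replicate block, which is the pairing by experiment, the counts were 0 with glucose, 2 without glucose, 0 for the difference of the KMT2D-KO effects, 0 for glucose deprivation in KMT2D-WT cells and 0 in KMT2D-KO cells, and 0 between lines, where edgeR with the block called 2, 5, 1, 0, 5, and 2. Over all genes these fits called 971, 3659, 70, 2, 1465, and 10 in place of 5042, 8521, 2105, 2536, 4813, and 3116. With glucose, DESeq2 without the block called 1 member (2577 genes in all). Single lines were compared with KMT2D-WT in a fit of all 7 libraries, with the other line as its own term. With glucose that called 5 members for KO1 (6860 genes), DLD lower and PDHX and PDP1 higher being added. It called 4 for KO2 (7518 genes), PDHB higher and PDK1 lower being added. Experiment 2 alone called 0 with glucose (2336 genes). Without glucose, experiment 1 alone called 0 members (0 genes), experiment 2 alone 7 (12888 genes), the close pairs of experiment 2 summed 2 (2785 genes), and DESeq2 without the block 4821 genes. For the difference of the KMT2D-KO effects, DESeq2 called 3 members (3473 genes) and a fit with no filter on low counts called 0. For glucose deprivation in KMT2D-WT cells, DESeq2 called 4 members (6213 genes), RLE normalization 1, no filter 3 (5560 genes), a filter of at least 1 CPM in 3 libraries 1, halved both-mate counts 1, a gene length offset 2, and experiment 2 alone 6 (8960 genes). In KMT2D-KO cells, library size alone called 2, no filter 3, experiment 1 alone 0 (0 genes), and experiment 2 alone 8 (9743 genes).

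Leaving out 1 library at a time gave 0 to 2 members with glucose, 5 to 7 without glucose, 0 to 2 for the difference of the KMT2D-KO effects, 0 to 6 for deprivation in KMT2D-WT cells and 0 to 6 in KMT2D-KO cells, and 0 to 2 between lines. The 7 without glucose, with PDK2 and PDK3 lower, came without KMT2D-KO replicate 1. The count with glucose was 0 without KMT2D-WT replicate 1 or 3. That for deprivation in KMT2D-WT cells was 6 without either library of experiment 1. In KMT2D-KO cells it was 0 without replicate 4 of either condition and 1 (PDHB) without replicate 3 of either. Between lines it was 0 without KMT2D-KO replicates 1, 2, or 4 and 1 without replicate 3, and the 4 KMT2D-KO libraries alone called 3 (4733 genes), PDHB among them. Over all genes the ranges were 2142 to 5048, 6031 to 12448, 788 to 4230, 0 to 8747, 1991 to 6553, and 905 to 3974.

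Settings chosen after seeing the data were group means in TPM and the kinase sums scaled by TMM. The kinase sums in TPM had been planned. In TPM the direction turned for DLAT (-0.060), PDHX (-0.038), and PDP1 (-0.091) between genotypes without glucose, and for DLAT (-0.021) on deprivation in KMT2D-KO cells. The share of higher genes among those called fell with library size alone from 46.5% to 20.5% for deprivation in KMT2D-KO cells, from 42.0% to 9.90% for the difference of the KMT2D-KO effects, and from 48.3% to 35.0% between lines. With DESeq2 it was 64.6% in place of 48.5% for deprivation in KMT2D-WT cells, 60.4% for KMT2D-KO cells, and 52.0% for the difference of the effects, where the gene length offset gave 57.2%. Intervals and floors cover counting error only, and the smallest groups held 3 libraries.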
